A study of Homo sapiens with 14 samples.

Results

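The serine/arginine-rich (SR) splicing factors, the kinases that phosphorylate them and a group of related splicing regulators were examined as a set of 42 genes among the 78686 gene identifiers of the RNA-seq tables. The genes were chosen by name, and all 42 were matched by symbol to the identifiers with the version number removed. They comprise 12 SR proteins (SRSF1 to SRSF12), 2 TRA2 proteins, 6 kinases (SRPK1, SRPK2 and CLK1 to CLK4), 3 exon junction regulators (PNN, ACIN1, RNPS1), 3 U1-associated LUC7 proteins, 4 factors of the 3 prime splice site (U2AF1, U2AF2, DDX39B, SFSWAP), 5 RBM proteins (RBM5, RBM6, RBM10, RBM25, RBM39) and 7 other proteins rich in arginine and serine (THRAP3, BCLAF1, PPIG, NKTR, RSRC1, RSRC2, RSRP1). SRRM1, SRRM2 and SON were left out of the set.

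All 14 libraries came from HCT116, a human colon carcinoma cell line, carrying osTIR1(F74G), a plant F-box protein, and SAF-A fused to mAID and Halo. SAF-A is the nuclear RNA-binding protein encoded by HNRNPU. The small molecule 5-Ph-IAA lets this form of TIR1 recruit mAID-tagged proteins for degradation. The time-course set held a DMSO vehicle, 5-Ph-IAA for 3 h and 5-Ph-IAA for 12 h. The Nutlin set held its own DMSO vehicle, Nutlin for 3 h, 5-Ph-IAA for 3 h, and 5-Ph-IAA with Nutlin for 3 h. Nutlin blocks the binding of MDM2 to p53. The labels give no time for either vehicle, so time in culture cannot be told apart from treatment in the comparisons with vehicle. Each of these 7 groups had 2 libraries, and each treated group was set against the vehicle of its own set. Vehicle cells carry the same TIR1 and tagged SAF-A, and no library of cells without them was analysed here, so effects of 5-Ph-IAA apart from the loss of SAF-A cannot be told apart from it. The labels do not say whether the 2 libraries of a group came from separate cultures, so p-values measure the spread between these libraries, which may be technical.

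SR proteins bind exonic enhancer sequences through RNA recognition motifs and recruit the spliceosome through domains of repeated arginine-serine dipeptides. SRPK kinases phosphorylate these domains mainly in the cytoplasm, which allows nuclear import, and CLK kinases act in the nucleus and release SR proteins from nuclear speckles. Many SR protein genes limit their own output by splicing in a poison exon, an exon with an early stop codon that sends the transcript to nonsense-mediated decay. The expression of such a gene is therefore set by its transcript make-up as well as by its transcript number.

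An early stop is shown for each of 4 SR protein genes. These genes passed the test at 12 h and carry an exon of this kind. SRSF3, SRSF4 and SRSF7 have other such exons that are not shown. In GENCODE 29 on GRCh38, 20 of the 42 genes had a nonsense-mediated decay transcript with a stop in an exon that overlapped no exon of a coding transcript. Each line gives 30 bases of transcript sequence, 5′ to 3′ on the gene's strand, with the stop codon in capitals.
SRSF3: cttctcaccaccctcTGAatctgcattagc
SRSF6: gcagccttttgccatTAGacgcagggtgat
SRSF7: ttgagtcagtcgcctTGAttcagaatgtca
SRSF4: ttcttacaaggaaaaTGAgtgaatgtggga
The SRSF3 bases lie at chr6:36599837-36599866 (plus strand) in an exon of 456 bases, and the SRSF6 bases at chr20:43459287-43459316 (plus strand) in an exon of 268 bases. The SRSF7 bases lie at chr2:38749307-38749336 (minus strand) in an exon of 449 bases, and the SRSF4 bases at chr1:29165997-29166026 (minus strand) in an exon of 175 bases. The gene tables do not count single exons, so use of these exons was not measured. What the tables give is the weighted transcript length of each gene, the mean length of its transcripts weighted by their abundance, which is described after the counts. It is no readout of these exons: the coding transcripts of SRSF3 alone run from 869 to 4222 bases.

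Library totals ran from 3.54 M to 35.14 M expected counts (M stands for mega). In the time-course set 12 h replicate 2 had 3.54 M and the other libraries 29.58 M to 35.14 M, while the Nutlin set ran from 12.65 M to 17.23 M. The epithelial markers EPCAM, CDH1, KRT8, KRT18 and KRT19 were expressed in every library. CDX1 was listed at 0 and VIL1 stayed at or under 0.26 TPM, the RSEM transcript abundance corrected for length and library size. The 14 markers of other cell types reached at most 5.01 TPM. HNRNPU mRNA rose at 12 h by 0.31 ± 0.06 (log2 fold change ± SE, adjusted p = 0.00744), and loss of the tagged protein is not checked by its mRNA. CDKN1A, a p53 target, rose with Nutlin by 1.41 ± 0.09 (adjusted p = 3.2e-05), and MDM2 had a log2 difference of 0.54 that missed the threshold (adjusted p = 0.0661). The mitochondrial share of counts was 0.163% and 0.215% in the time-course vehicle and 0.251% and 0.291% at 12 h. Of the epithelial markers, KRT18 rose by 0.34 and KRT19 by 0.20 at 12 h. The part of these shifts in the results at 12 h was not tested.

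Levels of different genes were compared in TPM. SRSF1, a general activator of exon inclusion, had a mean of 199.6 TPM over the 14 libraries, and SRSF2, an SR protein that stays in the nucleus, 194.7 TPM. Their ranges of 164.1 to 253.5 and 151.9 to 246.9 TPM overlapped, so the order of these neighbours is not resolved. DDX39B, an RNA helicase of early spliceosome assembly and mRNA export, followed at 152.6 TPM, then SRSF7 at 147.8, SRSF3 at 145.5, SRSF5 at 140.8 and TRA2B, an enhancer-binding relative of the SR proteins, at 118.8 TPM. The highest of the other roles were RBM39, a U2AF-like coactivator of splicing, at 104.1 TPM, BCLAF1 at 99.86, LUC7L3 at 54.2, RNPS1 at 51.39 and CLK1 at 33.09 TPM. These means pool all treatments, and the next genes overlapped: ACIN1 had 50.94 TPM beside RNPS1, and SRPK1 32.85 TPM beside CLK1. All 6 kinases were under 35 TPM on average, down to CLK4 at 6.77 TPM. SRSF12 lay between 0 and 0.11 TPM in every library and did not pass the filter on low counts, which the other 41 genes passed in each fit.

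After 12 h of 5-Ph-IAA, 11 of these 41 genes differed from vehicle in expected counts, against 11.4% of all 19049 genes tested (2163 genes). SRSF2, SRSF3, SRSF6, SRSF7, SRSF10 and TRA2B fell, and SRSF4, ACIN1, SFSWAP, RBM6 and THRAP3 rose. In these bulk samples fewer cells of a kind and less RNA per cell cannot be told apart. The 6 that fell stand beside 7.97% of all genes lower, and the 5 that rose beside 3.39% higher. The median log2 fold change was -0.08 over the 41 genes and -0.003 over all genes. The direction of the median depended on length: with counts scaled by each gene's effective transcript length it was 0.16 over the 41 genes and -0.004 over all genes. Under that scaling 25 of the 41 genes were above 0, against 15 without it, and 5 passed (2.23% of all genes, 424 genes). SRSF2 stayed lower and THRAP3 higher, while SRPK1, LUC7L3 and RBM5 were higher past the threshold only with the scaling. TPM, this scaling and the weighted transcript length rest on the same RSEM estimates, so they are not independent of each other.

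**Figure D1:**
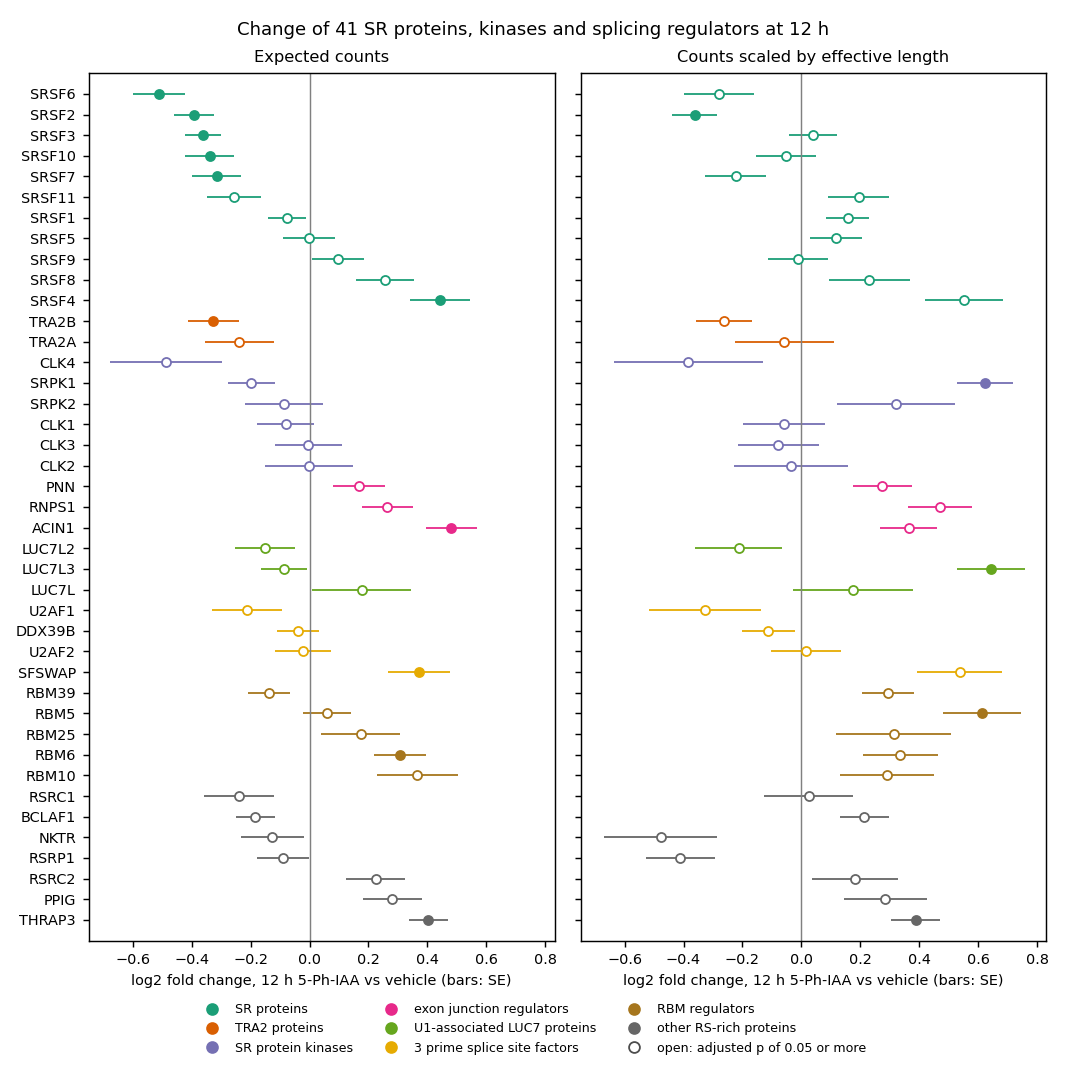
Log2 fold change of the 41 tested genes at 12 h of 5-Ph-IAA against vehicle, from expected counts (left) and from counts scaled by effective transcript length (right), grouped by role, with bars for the SE and filled points for an adjusted p under 0.05. SRSF2 and THRAP3 are filled in both panels, SRSF3 moves from -0.36 to 0.04, and SRPK1 moves from -0.20 to 0.62.

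Among the SR proteins, 5 of 11 fell and 1 rose in counts. SRSF2 stood at 467 and 468 CPM, counts scaled by library size with TMM factors, in the vehicle libraries, 462 and 460 at 3 h, and 374 and 335 at 12 h. Both 12 h libraries lay under all 4 others. Its log2 fold change at 12 h was -0.39 ± 0.07 (adjusted p = 0.00332) in counts and -0.36 ± 0.08 (adjusted p = 0.0424) with the length scaling. SRSF2 passed under all 12 alternatives tried for this comparison.

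SRSF3, the smallest SR protein and a regulator of its own poison exon, stood at 479 and 491 CPM in vehicle, 480 and 464 CPM at 3 h, and 379 and 376 CPM at 12 h. The 12 h counts lay under all others, a change of -0.36 ± 0.06 (adjusted p = 0.00285). Per length the picture differed. SRSF3 had 137.9 and 152.2 TPM in vehicle and 166.8 and 155.8 TPM at 12 h, so the 12 h libraries were the higher ones, and the length-scaled fold change was 0.04 ± 0.08 (adjusted p = 0.863). Its weighted transcript length was shorter at 12 h, as given below.

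SRSF6, an SR protein with 2 RNA recognition motifs, had 291 and 344 CPM in vehicle, 283 and 287 CPM at 3 h, and 214 and 235 CPM at 12 h. The change was -0.51 ± 0.09 (adjusted p = 0.00308), and with the length scaling it was -0.28 ± 0.12 (adjusted p = 0.267). SRSF7, which has a zinc knuckle beside its RNA recognition motif, had 278 and 269 CPM in vehicle, 281 and 247 CPM at 3 h, and 229 and 207 CPM at 12 h, a change of -0.32 ± 0.08 (adjusted p = 0.028). SRSF10, a splicing regulator that is controlled by its phosphorylation, had 195 and 179 CPM in vehicle, 188 and 173 CPM at 3 h, and 152 and 142 CPM at 12 h, a change of -0.34 ± 0.08 (adjusted p = 0.021). For all 3 genes both 12 h libraries lay under all 4 others. With the length scaling SRSF7 had -0.22 (adjusted p = 0.302) and SRSF10 -0.05 (adjusted p = 0.85). SRSF7 and SRSF10 also lost the call when either 12 h library or vehicle replicate 1 was left out.

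SRSF4 was the SR protein that rose. It had 65.7 and 61.0 CPM in vehicle, 58.5 and 60.6 CPM at 3 h, and 91.5 and 78.1 CPM at 12 h, with both 12 h libraries above all others. The change was 0.44 ± 0.10 (adjusted p = 0.0154), and 0.55 ± 0.13 (adjusted p = 0.0657) with the length scaling. It was 0.31 (adjusted p = 0.223) without 12 h replicate 1. The remaining SR proteins did not pass: SRSF11 had -0.26, SRSF1 -0.08, SRSF5 -0.002, SRSF9 0.10 and SRSF8 0.26. SRSF1 had 639 and 622 CPM in vehicle and 631 and 562 CPM at 12 h, groups that overlapped. SRSF8 is a close copy of SRSF2, so reads shared by the 2 genes could have been split between them.

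TRA2B had 275 and 274 CPM in vehicle, 290 and 252 CPM at 3 h, and 231 and 203 CPM at 12 h. The 12 h libraries were the lowest, with a change of -0.33 ± 0.09 (adjusted p = 0.0298) in counts and -0.26 ± 0.10 (adjusted p = 0.201) with the length scaling. Without 12 h replicate 2 it was -0.25 (adjusted p = 0.119). TRA2A, its close relative, had -0.24 ± 0.12 and did not pass.

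None of the 6 kinases passed in counts at 12 h, and all 6 had values under 0. CLK4 had -0.49 ± 0.19 at low counts, with 18.2 and 18.1 CPM in vehicle and 14.8 and 9.04 CPM at 12 h. SRPK1, the main cytoplasmic SR protein kinase, had 155 and 167 CPM in vehicle, 155 and 147 CPM at 3 h, and 138 and 143 CPM at 12 h, a difference of -0.20 ± 0.08 (adjusted p = 0.138). In TPM the 12 h libraries were the highest instead of the lowest. SRPK1 had 30.07 and 32.16 TPM in vehicle, 29.23 and 28.28 TPM at 3 h, and 52.07 and 51.72 TPM at 12 h, and with the length scaling it was higher by 0.62 ± 0.10 (adjusted p = 0.0159). CLK1, CLK2 and CLK3 lay between -0.08 and -0.002 in counts.

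ACIN1, an exon junction protein with an RNA recognition motif, had 163 and 154 CPM in vehicle, 172 and 163 CPM at 3 h, and 237 and 202 CPM at 12 h. The 12 h libraries lay above all others, with a rise of 0.48 ± 0.09 (adjusted p = 0.00397) in counts and a length-scaled value of 0.36 ± 0.10 (adjusted p = 0.0867). Without 12 h replicate 1 its count value was 0.36 (adjusted p = 0.0622). RNPS1, which forms a complex with ACIN1, had 84.0 and 90.5 CPM in vehicle and 106 and 104 CPM at 12 h, a difference of 0.26 (adjusted p = 0.0735). PNN had 0.17 (adjusted p = 0.263).

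Of the LUC7 proteins, which bind the U1 particle near the 5 prime splice site, none passed in counts, with values from -0.15 to 0.18. LUC7L3 had 176 and 187 CPM in vehicle and 167 and 176 CPM at 12 h, but 48.9 and 56.53 TPM in vehicle and 79.15 and 101.3 TPM at 12 h. With the length scaling it was higher by 0.64 ± 0.12 (adjusted p = 0.0254). LUC7L2 shares sequence with the readthrough gene FMC1-LUC7L2, so its counts could have been split.

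SFSWAP, a splicing regulator rich in arginine and serine, was the member of the 3 prime splice site list that rose. It had 54.0 and 52.8 CPM in vehicle, 59.9 and 52.5 CPM at 3 h, and 67.1 and 72.3 CPM at 12 h, above all others, with a change of 0.37 ± 0.10 (adjusted p = 0.0385). The call was lost without vehicle replicate 2 or without either 12 h library, and the length-scaled value was 0.54 (adjusted p = 0.0898). DDX39B had 292 and 296 CPM in vehicle and 278 and 296 CPM at 12 h, groups that overlapped. U2AF1 and U2AF2, the subunits of the factor that recognises the 3 prime splice site, had -0.21 and -0.02 and did not pass.

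RBM6, a putative tumour suppressor with RNA recognition motifs, had 75.3 and 71.3 CPM in vehicle, 74.2 and 78.3 CPM at 3 h, and 90.8 and 90.4 CPM at 12 h. Its change of 0.31 ± 0.09 (adjusted p = 0.0445) lay close to the threshold, and the call was lost in 8 of 12 alternatives, among them the omission of 5 of the libraries in turn (vehicle replicate 2 and each 3 h and 12 h library). RBM6 overlaps RBM5 on the same strand. RBM5 had 110 and 113 CPM in vehicle and 113 and 121 CPM at 12 h, with a length-scaled value of 0.61 ± 0.13 (adjusted p = 0.0481). RBM39 had 281 and 268 CPM in vehicle and 257 and 239 CPM at 12 h, a difference of -0.14 (adjusted p = 0.263). In TPM it had 97.81 and 102.4 in vehicle and 130.3 and 136.3 at 12 h, and the length-scaled value of 0.29 ± 0.09 did not pass (adjusted p = 0.12).

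THRAP3, a speckle-associated protein of the mRNA-processing machinery, had 242 and 245 CPM in vehicle, 246 and 242 CPM at 3 h, and 326 and 316 CPM at 12 h. The 12 h libraries lay above all 4 others, and the 3 h libraries overlapped vehicle. THRAP3 rose by 0.40 ± 0.07 (adjusted p = 0.00241) in counts and by 0.39 ± 0.08 (adjusted p = 0.0472) with the length scaling, and it passed under all 12 alternatives. BCLAF1, its closest relative, had 324 and 337 CPM in vehicle and 298 and 283 CPM at 12 h. This difference of -0.18 ± 0.07 did not pass (adjusted p = 0.096), and the length-scaled value was 0.21 (adjusted p = 0.234). PPIG had 0.28, RSRC2 0.22, RSRP1 -0.09, NKTR -0.13 and RSRC1 -0.24, and none of these passed.

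**Figure D2:**
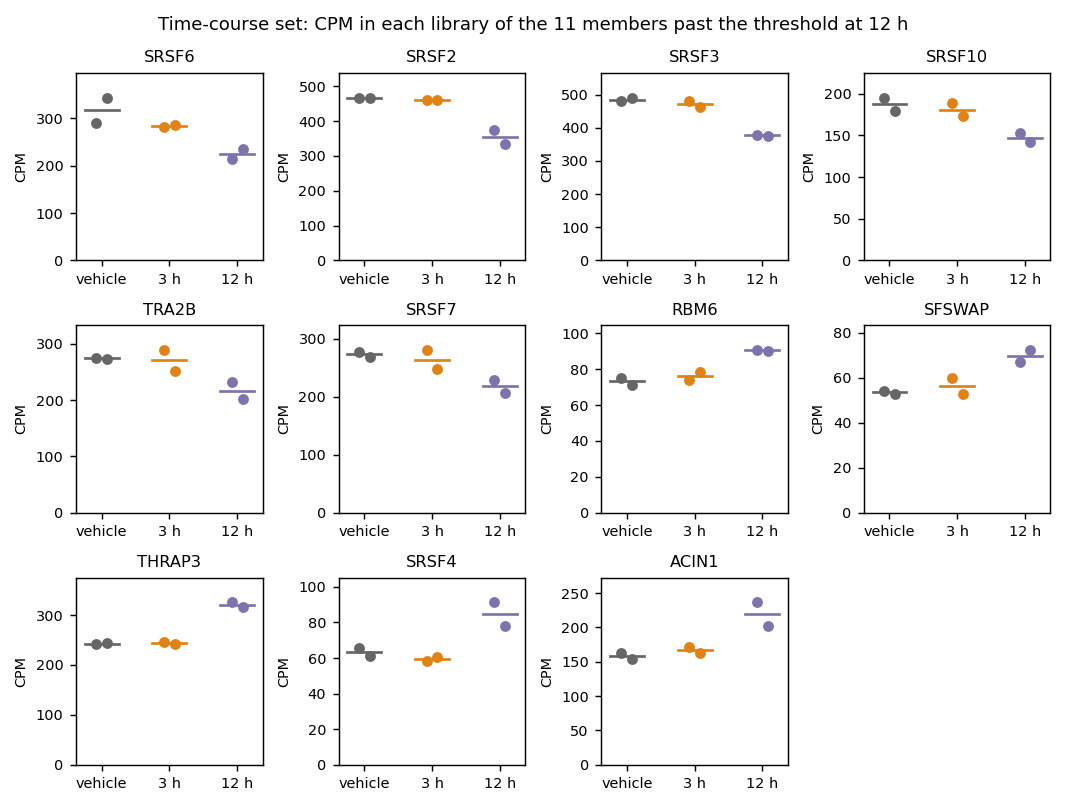
CPM (linear axis from 0) in each library of the time-course set for the 11 genes past the threshold at 12 h, with points for the 2 libraries of a group and bars for their mean. In all 11 panels the 12 h libraries lie apart from both vehicle libraries, which is no further support, as this comparison chose the genes. Over all genes, 27.9% were lower and 22.9% higher without overlap. SRSF2 is at 374 and 335 CPM against 467 and 468, and THRAP3 at 326 and 316 CPM against 242 and 245.

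The number of calls at 12 h rested in part on single libraries. Without 12 h replicate 1, the deeper of the pair, 6 of the genes passed (4.67% of all genes), 5 of them among the 11. Without the shallow 12 h replicate 2, 6 passed (9.53%), all among the 11. When all libraries of the set were thinned to the depth of the shallowest, 10 passed (13.7%), 9 of them among the 11. Read as CPM alone, 16 of 41 genes had both 12 h libraries under both vehicle libraries (27.9% of all genes) and 12 had both above (22.9%).

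The change between 3 h and 12 h was tested directly, with 8 of 41 genes past the threshold against 8.14% of all genes (1551 genes). SRSF2, SRSF3, SRSF6 and TRA2B were lower at 12 h than at 3 h (5.79% of all genes were), and THRAP3, SRSF4, ACIN1 and RSRC2 were higher (2.35% of all genes). SRSF4 differed most, by 0.53 ± 0.10 (adjusted p = 0.00845). RSRC2, an SR-related protein, had 114 and 102 CPM in vehicle, 98.0 and 86.6 CPM at 3 h, and 132 and 118 CPM at 12 h, so the 12 h libraries lay above the 3 h libraries by 0.45 ± 0.10 (adjusted p = 0.0172). With the length scaling 3 of the 41 genes passed (1.24% of all genes). Of the 8 only SRSF2 was among them, at -0.38 (adjusted p = 0.0499), and the others were SRPK1 at 0.71 (adjusted p = 0.0236) and LUC7L3 at 0.59 (adjusted p = 0.0491). In counts, 3 passed without 3 h replicate 1 (3.14% of all genes) and 4 without 12 h replicate 1 (2.98%). The number also moved when either vehicle library was left out, although these libraries enter this contrast only through the shared spread.

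Weighted transcript length, tested with limma on its log2 value, was shorter at 12 h for 2 of 41 genes, against 0.348% of the 11793 genes tested (41 genes), and 0.382% of them differed in either direction. SRPK1 had 3520 and 3737 bases in vehicle, 3566 and 3621 bases at 3 h, and 2020 and 2161 bases at 12 h. The 12 h libraries were far under the others, by -0.80 ± 0.05 on the log2 scale (adjusted p = 0.0469). SRSF1 had 2254 and 2291 bases in vehicle, 2091 and 2136 bases at 3 h, and 1910 and 1878 bases at 12 h, a change of -0.26 ± 0.02 (adjusted p = 0.0469). The 3 groups of SRSF1 did not overlap. Both calls were lost, with values between -0.84 and -0.75 for SRPK1 and between -0.28 and -0.25 for SRSF1, when any 1 library was left out, and no gene of the table passed then (adjusted p from 0.0771 to 0.225 for the 2 genes).

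Other members of lower p, chosen after their values were seen, did not pass. BCLAF1 went from 2827 and 2826 bases in vehicle to 2085 and 2163 bases at 12 h, a difference of -0.41 ± 0.04 (adjusted p = 0.0524). LUC7L3 went from 2527 and 2465 to 1650 and 1438 bases (adjusted p = 0.0681) and RBM39 from 2069 and 2006 to 1561 and 1457 bases (adjusted p = 0.0694). SRSF3 went from 2454 and 2415 bases to 1762 and 1915 bases (adjusted p = 0.0728). In all 4 genes the 12 h libraries lay under both vehicle libraries. RSRP1 and NKTR, in contrast, had values above 0 of 0.22 and 0.29, and neither passed.

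Across the set, 33 of 41 genes had a weighted length under that of vehicle at 12 h, and the median over all genes tested was also under 0. At an unadjusted p under 0.05 there were 22 of 41 genes (17.2% of all genes). The median was -0.14, against -0.04 over all genes tested. Both 12 h libraries were shorter than both vehicle libraries in 25 of 41 genes (31.9% of all genes) and longer in 3 (11.5% of all genes). At 3 h in the same set 17 of 41 genes were shorter without overlap (21.3% of all genes), and none passed. SRSF1 had the lowest p there, with a difference of -0.10 ± 0.02 (adjusted p = 0.837), then SRSF8 with -0.15 and RNPS1 with -0.14. In the Nutlin set, where 5-Ph-IAA was also given for 3 h, 7 of 41 genes were shorter without overlap (16.2% of all genes) and 6 longer (15.8%). Fragments were also shorter at 12 h, with a typical length of 223.0 and 233.2 bases against 251.3 and 240.3 bases in vehicle, and their part in the weighted lengths was not tested.

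**Figure D3:**
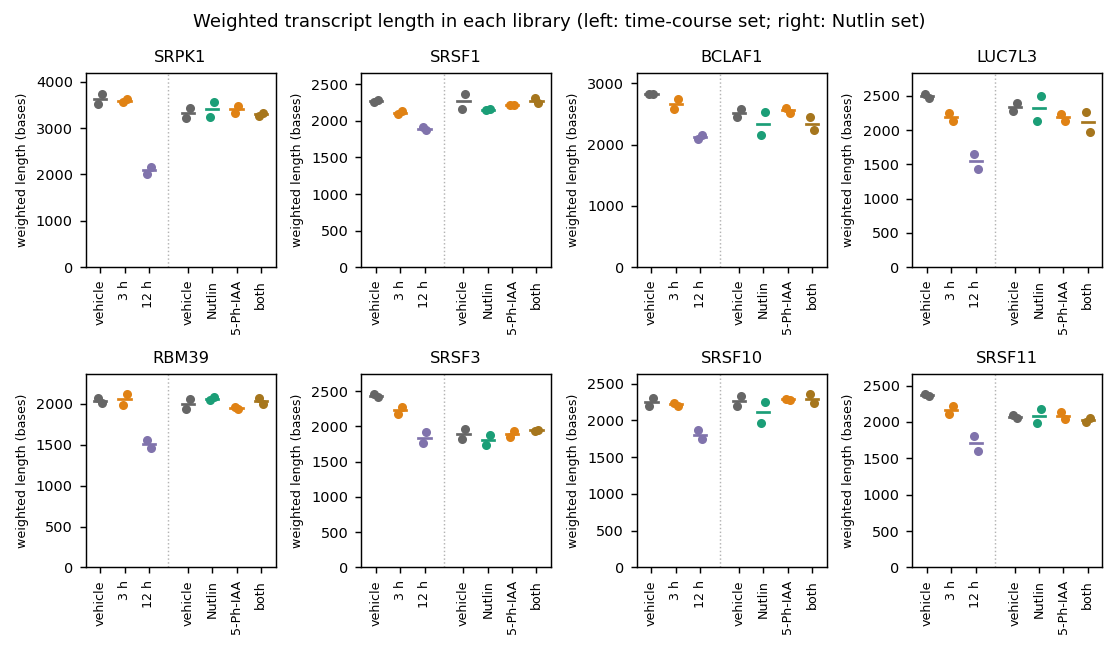
Weighted transcript length in bases (linear axis from 0) in each library for the 8 genes of lowest p at 12 h, with points for libraries, bars for the group mean and a dotted line between the time-course set and the Nutlin set. SRPK1 is at 2020 and 2161 bases at 12 h and at 3229 bases or more in all other libraries, and SRSF1 steps down from vehicle to 3 h to 12 h.

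At 3 h of 5-Ph-IAA none of the 41 genes passed in the time-course set, where 13 genes of the whole table did (0.0682%), and none in the Nutlin set, where no gene did (0%). At an unadjusted p under 0.05 there were 4 of 41 genes in the first (6.45% of all genes) and 1 in the second (1.42%). CLK1, a nuclear SR protein kinase, had low p in both. It had 68.2 and 72.9 CPM in the time-course vehicle against 88.0 and 80.3 CPM at 3 h, and 68.4 and 69.8 CPM in the Nutlin-set vehicle against 92.3 and 86.0 CPM with 5-Ph-IAA. In each set both treated libraries lay above both vehicle libraries. This is no further support, as CLK1 is singled out for its low p in these comparisons. The share of all genes without overlap at 3 h is not given here.

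The CLK1 difference was 0.25 ± 0.09 (adjusted p = 0.722) in the time-course set and 0.37 ± 0.14 (adjusted p = 1) in the Nutlin set. Fitted as 1 effect common to both sets it was 0.31 ± 0.06, with an unadjusted p of 9.82e-05 and an adjusted p of 0.618 in edgeR, where no gene passed (0%), and it passed in DESeq2 with 0.32 (adjusted p = 0.012). At 12 h CLK1 had 68.4 and 63.8 CPM. The difference of -0.34 ± 0.10 from 3 h missed the threshold in edgeR (adjusted p = 0.0546). It passed in DESeq2 with -0.32 (adjusted p = 0.041). A rise at 3 h and a return by 12 h thus passed no test in edgeR.

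RSRP1, an SR-related protein, had values of opposite sign in the 2 sets, a difference that did not pass in edgeR. It had 89.2 and 84.8 CPM in the time-course vehicle and 71.5 and 72.6 CPM at 3 h, but 89.6 and 91.6 CPM in the Nutlin-set vehicle and 106 and 106 CPM with 5-Ph-IAA. The treated libraries were lower in the first set (-0.27 ± 0.08, adjusted p = 0.635) and higher in the second (0.22 ± 0.10, adjusted p = 1). The test of this difference, which 0.0636% of all genes and none of the 41 passed, gave 0.48 ± 0.10 (adjusted p = 0.201) in edgeR and 0.49 (adjusted p = 0.0225) in DESeq2. RBM10, an X-linked exon-skipping factor, had 88.7 and 62.7 CPM in vehicle and 91.8 and 97.8 CPM at 3 h. Its vehicle libraries were far apart, and its difference of 0.33 (adjusted p = 0.749) became 0.62 (adjusted p = 0.00234) without vehicle replicate 1 and 0.10 (adjusted p = 1) without vehicle replicate 2. RBM6, next by p in the Nutlin set after CLK1 and RSRP1, had 82.6 and 77.6 CPM in vehicle and 73.9 and 71.2 CPM with 5-Ph-IAA (adjusted p = 1).

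**Figure D4:**
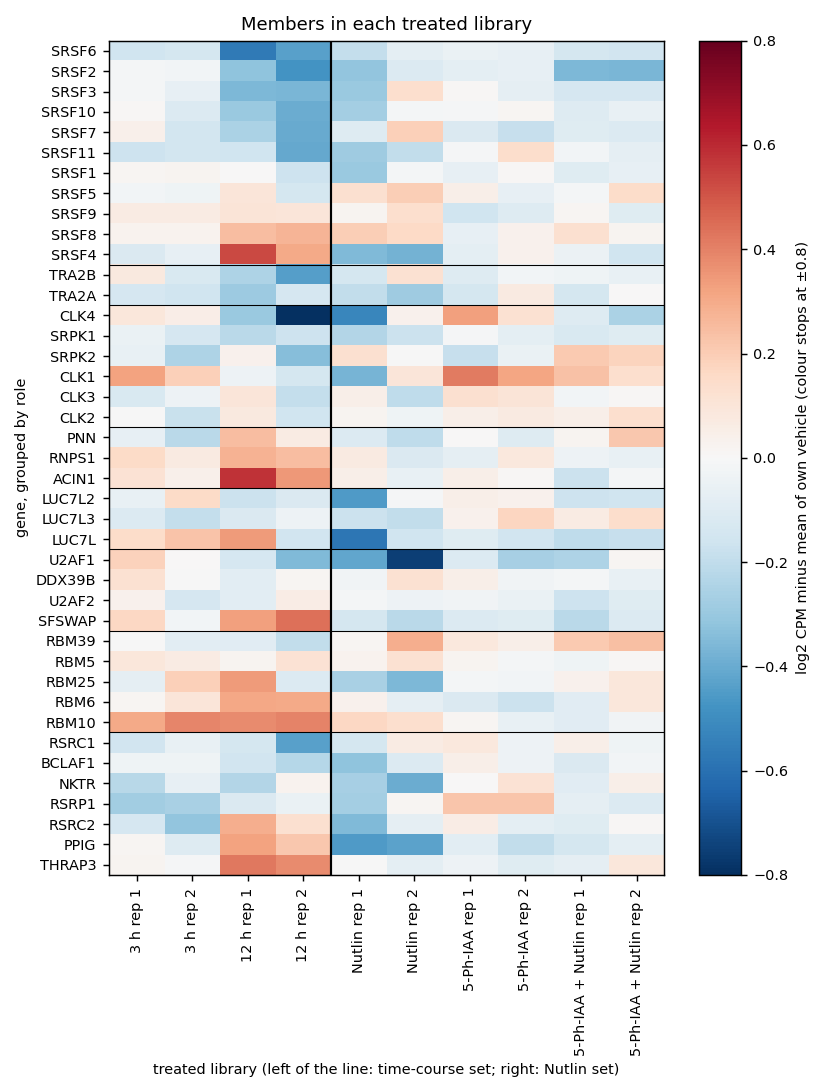
Log2 CPM of the 41 genes in each treated library minus the mean of the 2 vehicle libraries of its own set, with rows grouped by role, a vertical line between sets and colours that stop at ±0.8. The 12 h columns hold the blue block of SRSF6, SRSF2, SRSF3, SRSF10 and SRSF7, the CLK1 row is red in the 3 h 5-Ph-IAA columns of both sets, and the Nutlin replicate columns differ from each other.

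With Nutlin alone none of the 41 genes passed, against 80 genes of the whole table (0.464%). At an unadjusted p under 0.05 there were 9 of 41 genes in edgeR (10.8% of all genes), and DESeq2 called 1, U2AF1 (0.916% of all genes). The median log2 fold change was -0.12 over the 41 genes and -0.003 over all genes, and 16 of 41 had both Nutlin libraries under both vehicle libraries (17.8% of all genes), against 4 above (18.3%). U2AF1 had 85.9 and 88.1 CPM in vehicle and 65.3 and 51.5 CPM with Nutlin, a difference of -0.58 ± 0.13 (adjusted p = 0.132). Its value in DESeq2 was -0.58 (adjusted p = 0.0148). U2AF1 has a near-identical annotated copy, U2AF1L5, between which reads could have been split. PPIG, a cyclophilin with an arginine-serine domain, had 52.2 and 45.3 CPM in vehicle and 35.6 and 36.1 CPM with Nutlin (-0.45 ± 0.11, adjusted p = 0.148). SRSF4 had 79.3 and 86.0 CPM in vehicle and 64.7 and 63.5 CPM with Nutlin (-0.37 ± 0.10, adjusted p = 0.195), under vehicle where its 12 h libraries had been above. The 2 Nutlin libraries stood apart from each other more than any other pair. Without Nutlin replicate 2, 12 of the 41 genes passed, all lower, beside 6.4% of all genes in either direction and 4.15% lower. Without Nutlin replicate 1, 6 passed, 5 of them lower, beside 11.6% of all genes and 7.06% lower.

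With 5-Ph-IAA and Nutlin together none of the 41 genes passed against vehicle (56 genes of the table, 0.325%) or against 5-Ph-IAA alone (67 genes, 0.388%) in edgeR. At an unadjusted p under 0.05 there were 1 (7.26% of all genes) and 4 of 41 genes (7.61%). SRSF2 had 540 and 544 CPM in vehicle, 514 and 519 CPM with 5-Ph-IAA, 435 and 502 CPM with Nutlin, and 422 and 420 CPM with both. The libraries with both agents were the lowest, a difference of -0.36 ± 0.09 from vehicle (adjusted p = 0.242). This value ran from -0.38 to -0.35 over the 13 alternatives. Whether it passed depended on the libraries with Nutlin alone, which enter this contrast only through the shared spread. RBM39 had 250 and 241 CPM in vehicle and 284 and 291 CPM with both agents (0.23, adjusted p = 0.695), and SRPK2 41.9 and 44.8 CPM in vehicle and 50.1 and 49.0 CPM with both (0.19, adjusted p = 0.753). Against Nutlin alone no gene of the table passed, and at an unadjusted p under 0.05 there were 8 of 41 genes (8.14% of all genes). Without Nutlin replicate 1, 8 of 41 genes passed the adjusted threshold, beside 13.6% of all genes. The interaction of the 2 agents passed for none of the 41 genes, with U2AF1 at 0.65 ± 0.19 (adjusted p = 0.989), and for no gene of the table (unadjusted p under 0.05: 4 of 41 genes, 3.61% of all genes).

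Genes of the same pathway outside the set were taken from 3 lists, whose counts at 12 h stand beside 3.39% of all genes higher and 7.97% lower. Of 15 tested kinases, phosphatases and import factors of SR proteins, 1 rose and 3 fell at 12 h in counts. The fallen ones included PPP1CC and PPP1CB, catalytic subunits of protein phosphatase 1, which removes phosphates from SR proteins. PPP1CA, another catalytic subunit on this list, did not pass. It had 93.94 and 79.57 TPM in vehicle and 98.5 and 101.7 TPM at 12 h. PPP1CC had 420 and 415 CPM in vehicle, 383 and 351 CPM at 3 h, and 258 and 250 CPM at 12 h, a fall of -0.71 ± 0.07 (adjusted p = 0.000229). PPP1CB had 203 and 251 CPM in vehicle, 197 and 180 CPM at 3 h, and 115 and 118 CPM at 12 h, a fall of -0.97 ± 0.10 (adjusted p = 0.000361). Both also passed with the length scaling, at -0.66 (adjusted p = 0.0135) and -0.60 (adjusted p = 0.0334). HIPK2, a nuclear kinase, had 0.56 (adjusted p = 0.0296), and PPP1R8, a nuclear regulator of this phosphatase, -0.31 (adjusted p = 0.0485).

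Of 22 SR-related proteins, 3 rose and 5 fell in counts at 12 h, among them U2SURP at -0.42 (adjusted p = 0.00493), SUGP2 at 0.52 (adjusted p = 0.00713), RBMX at -0.48 (adjusted p = 0.0147) and SREK1IP1 at -0.48 (adjusted p = 0.0149). None of these 4 passed with the length scaling. Of 14 exon junction and nonsense-mediated decay genes, 2 rose and 1 fell. Among them SMG5 had 0.30 (adjusted p = 0.0486) and MAGOHB -0.46 (adjusted p = 0.0469), and neither passed with the length scaling. With Nutlin the 1 call on these lists was PRPF4B, a kinase of the spliceosome, with 150 and 157 CPM in vehicle and 102 and 107 CPM with Nutlin (-0.55 ± 0.08, adjusted p = 0.0248).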

How the data were processed

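RNA was sequenced from 14 libraries, made from total RNA with a stranded total RNA kit per the labels' protocols. For each gene the authors deposited the RSEM expected count, TPM, length and effective length, as the columns are named per the file headers. The submitters' processing notes list DESeq2 1.48.1, STAR 2.7.10b, the hg38 (GRCh38) build and RSEM, the last with no version. The annotation release and the strand setting are not given in the sources used here. Of the deposited transcripts of the 42 genes, 93.1% were found in GENCODE 29, from which positions and sequences were read.

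Expected counts were rounded and tested with edgeR 4.0.16 (R 4.3.3), per set, with TMM factors, filterByExpr (minimum count 10, total 15), quasi-likelihood F tests and Benjamini-Hochberg adjustment over all genes tested (19049 and 17251 genes). The SE is the log2 fold change divided by the square root of F. CPM are scaled by TMM within a set and not comparable between sets. The 3 h libraries of both sets were also fitted together (18873 genes). Weighted length was the deposited length column, tested as log2 with limma 3.58.1 for genes with a mean count of at least 50 and more than 1 transcript. Depth limits 12 h replicate 2 most.

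The labels do not say whether replicate numbers pair libraries, and the main fits did not pair them. Deviations of same-numbered libraries correlated from -0.0888 to 0.047. Fits with a replicate block are given below. Replicates differed by more than sampling noise in every group, with chi-square per degree of freedom from 3.28 to 22.2.

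The 42 genes and the lists were chosen with earlier results of these data known. Values per library are given for genes that passed in any comparison, the most abundant of each role, and the 3 of lowest p where none passed. From the pathway lists come up to 4 that passed per comparison. One result of the exon junction list is not reported here. Alternatives were DESeq2 1.42.0, RLE size factors, no filter, the replicate block, thinning, a mean count of 200 for weighted length, and each library left out. Scaling by effective length, as an offset in edgeR, was chosen after seeing the data.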

Additional observations from a re-analysis of the deposited data

Results flagged for a closer look

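Of the 41 genes, 8 differed between 3 h and 12 h of 5-Ph-IAA by the test of that difference itself, in edgeR on counts. Over all genes tested 8.14% did (1551 genes). The log2 difference was -0.37 for SRSF2, -0.32 for SRSF3, -0.35 for SRSF6 and -0.31 for TRA2B, all lower at 12 h. It was 0.53 for SRSF4, 0.40 for ACIN1, 0.40 for THRAP3 and 0.45 for RSRC2, all higher at 12 h. Both groups were measured in the same set, and 12 h replicate 2 had 3.54 M counts against 33.49 M and 35.14 M at 3 h. After all libraries were thinned to that depth, SRSF3, SRSF6 and TRA2B had -0.23, -0.20 and -0.30 and no longer passed. With counts scaled by effective length 7 of the 8 no longer passed, all but SRSF2, with SRSF3 at -0.06 (adjusted p = 0.792) and SRSF6 at -0.15 (adjusted p = 0.586).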

How the results depend on the processing

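At 12 h against vehicle RLE, no filter, thinning and the replicate block each gave 10 to 12 members, and DESeq2 13. The edgeR fit used above gave 11 members, with 11.4% of all genes. Of these settings the share of all genes is given above for thinning only, so the other member counts cannot be read against it. With counts scaled by effective length, 5 members and 424 genes passed at 12 h against vehicle and 3 and 236 at 12 h against 3 h. The 1 reversal was SRSF3 at 12 h, at 0.0398 with that scaling. It left 0 genes at 3 h, 42 with Nutlin, 33 for both agents against 5-Ph-IAA, and 0 for the difference between sets. For 12 h against 3 h the edgeR fit used above gave 8 members, with 8.14% of all genes. There DESeq2 gave 13 members, no filter gave 14 members and 2448 genes, and the replicate block gave 12 members. The shares of all genes under DESeq2 and the replicate block are not printed here, so these member counts are no result about the set. For 3 h, DESeq2 gave 54 genes, no filter 193 and the replicate block 45. With Nutlin, DESeq2 gave 1 member and 158 genes and no filter 1 and 405. For 5-Ph-IAA in the Nutlin set these gave 1 and 53 genes, for both agents against vehicle 104 and 268, against 5-Ph-IAA 103 and 270, and against Nutlin 24 and 136 (with 1 member without the filter). For the interaction they gave 1 and 57 genes. For the difference between sets DESeq2 gave 1 member and 47 genes, no filter 1 and 177, and the replicate block 6 genes. For the common 3 h effect DESeq2 gave 1 member and 5 genes and no filter 1 and 110. For weighted length at 12 h, a mean count of 200 gave 91 genes and 3 members, and the replicate block 0 members and 0 genes, also 0 genes for 12 h against 3 h. The cause was not tested in any of these.

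With single libraries left out, 6 to 11 members and 961 to 2446 genes passed at 12 h, 3 to 13 and 612 to 2315 for 12 h against 3 h, 0 to 1 and 23 to 283 at 3 h, 0 to 12 and 25 to 2131 with Nutlin, and 0 and 0 to 1 for 5-Ph-IAA in the Nutlin set. For both agents the ranges were 0 to 1 and 21 to 395 against vehicle, 0 to 2 and 16 to 429 against 5-Ph-IAA, and 0 to 8 and 0 to 2490 against Nutlin. The interaction gave 0 to 2 and 0 to 1035, the difference between sets 0 to 1 and 5 to 145, and the common effect 0 and 0 to 2. Weighted length gave 0 throughout. A lone library in a group is then assumed to vary like the other groups. Depth limits the genes of low count most, such as CLK4.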
